A study of Mus musculus with 4 samples.

Results

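The genes described here encode the bone morphogenetic protein (BMP), Nodal, activin and transforming growth factor beta (TGF-beta) pathway. They are the 56 mouse genes whose single symbol in the platform annotation names a ligand, receptor, Smad, antagonist or response gene of this pathway, out of 14386 genes on named spots. The 56 genes lie on 122 spots, with 2 spots for 51 of them and 4 for the other 5, which carry 2 different sequences each. Acvr1c, Bmp3, Gdf15, Lefty2, Smad1 and Smad7 also fit the naming rule but are on no named spot, so they are not analysed here.

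RNA came from CGR8, an established mouse embryonic stem cell line, in 3 states: day 0, which the labels call both undifferentiated and embryoid bodies, and embryoid bodies, cell aggregates grown by the hanging drop method, at day 3 and at day 10. The labels name no transgene, treatment or other agent. Each of the 4 arrays carried embryoid body RNA of day 3 (2 arrays) or of day 10 (2 arrays) in 1 channel and day 0 RNA in the other. Within a day the second array is a technical replicate, so each day stands for 1 pair of RNA samples, no p-value can be given, and each SD below measures technical spread over 2 arrays. Values are log2 ratios with the median of each array set to 0. The labels do not say which channel is the numerator, so "positive" and "negative" are sides of the deposited ratio and do not tell which day had more RNA. RNA was taken from whole aggregates, so fewer cells of a type and less RNA per cell cannot be told apart.

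Ligands of this superfamily bind pairs of type I and type II serine/threonine kinase receptors, which phosphorylate receptor Smads. BMPs act through Smad1, Smad5 and Smad9, and Nodal, activin and TGF-beta through Smad2 and Smad3, and both branches share Smad4. In mouse embryos, Nodal patterns the epiblast and BMP4 is needed for mesoderm and germ cells. In mouse embryonic stem cell cultures, BMP raises the Id genes and helps to hold the undifferentiated state. Embryoid bodies form mesoderm and endoderm, in which both branches take part.

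The values of these genes went both ways. At day 3 their median was 0.03 over the 49 genes that both arrays measured, beside 0.01 over all 13707 such genes. At day 10 it was -0.13 over 50 genes, beside -0.01 over 13199. Among the genes in the brighter 50%, by a brightness recovered from the ratios, the day 10 median was -0.51 over 20 pathway genes, beside -0.13 over all. At day 3 it was 0.05 over 18 pathway genes, beside -0.06 over all. Membership of this brighter part rests in part on values whose signal is not known. The median size of the mean, without its sign, was 0.42 at day 3 and 0.50 at day 10 for the pathway genes, beside 0.34 and 0.39 for all genes. The BMP antagonist Chrd was the 1 of 49 pathway genes beyond 2-fold on both day 3 arrays (2.04%), beside 2.8% of all genes. Every day 3 reading of Chrd was beyond 2-fold on the negative side. Its mean was -1.76 ± 0.12 (SD of 2 technical arrays, as for all means below). The ligand gene Gdf1 was beyond 2-fold on the negative side at day 10, at -1.21 ± 0.23, but on a single spot per array.

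Chrd encodes chordin, a secreted protein that binds BMPs and keeps them from their receptors. It is Entrez gene 12667, on chromosome 16. On the day 3 arrays it had log2 ratios of -1.68 and -1.85. Its 2 spots read -1.43 and -1.93 on the first of these arrays and -1.94 and -1.75 on the second, so all 4 readings passed the limit. A gene was called beyond 2-fold when both arrays of a day were at or beyond 1 on the same side. By that measure Chrd was the only one of 49 pathway genes called at day 3 (2.04%), where 2.8% of all genes were called, 1.77% with positive and 1.03% with negative values. When every reading of at least 2 spots on both arrays had to pass, Chrd was the only one of 39 pathway genes. This criterion was added after the data were seen, so it gives no separate support for Chrd. Of 10234 genes, 1.24% passed it at day 3, and 0.274% passed on the negative side.

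At day 10 Chrd stayed on the negative side with -1.49 and -0.82, and its spots read -0.87 and -2.12 on the first array and -0.78 and -0.86 on the second. The second array was inside the limit, so Chrd was not called at day 10 and its mean was -1.16 ± 0.47. Both days were set against day 0, and the labels do not say whether the same RNA was used, so the negative ratios at day 3 and day 10 may not be independent of each other. Chrd was in the brighter part of the genes, at percentile 77.1 of the brightness recovered from the ratios.

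The 300 bases around the RefSeq start of Chrd are shown because Chrd was the pathway gene beyond 2-fold at every reading of day 3. Capitals mark matches to GGCGCC, a core of BMP response elements, and to CAGAC, a Smad-binding sequence, read on either strand (CAGAC then appears as GTCTG). The window is chr16:20732877-20733176 on the plus strand of GRCm38.p6, from 250 bases before to 50 after the start. It is 78.3% G and C.
Chrd: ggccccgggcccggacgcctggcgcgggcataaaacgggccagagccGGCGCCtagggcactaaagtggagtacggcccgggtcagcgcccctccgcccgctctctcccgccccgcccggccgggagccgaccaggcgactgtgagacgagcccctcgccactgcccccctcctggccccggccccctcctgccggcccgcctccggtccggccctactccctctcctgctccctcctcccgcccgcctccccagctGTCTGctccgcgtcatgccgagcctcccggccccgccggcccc

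**Figure D1:**
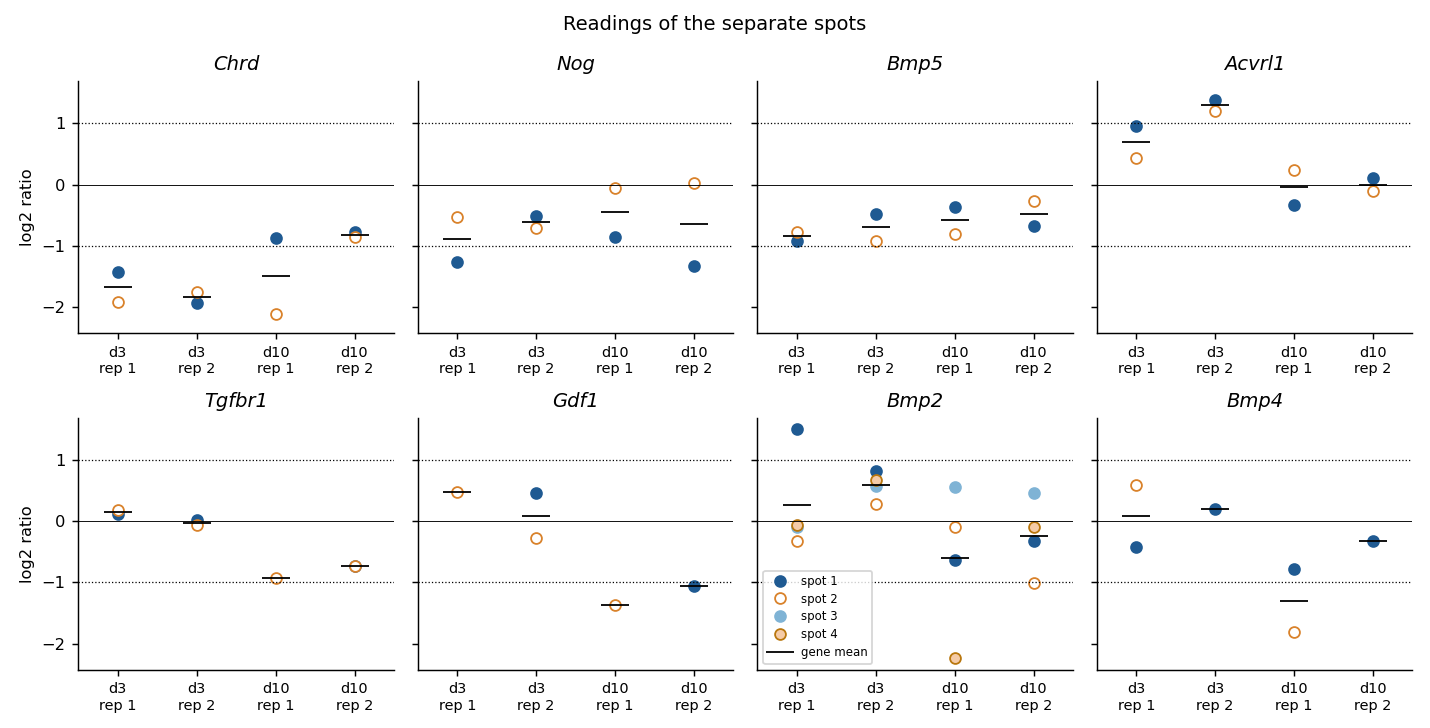
Log2 ratios (vertical axis, array median set to 0) of the separate spots of 8 genes on the 4 arrays (horizontal axis); black bars are gene means and dotted lines mark 2-fold. All 4 day 3 readings of Chrd lie below -1, while each day 10 mean of Gdf1 rests on 1 spot.

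Among the other antagonists, Nog, which encodes the BMP-binding protein noggin, had log2 ratios of -0.90 and -0.61 at day 3 and of -0.45 and -0.65 at day 10. All 4 values of Nog were negative and inside the 2-fold limit. Lefty1, which encodes an inhibitor of Nodal signalling, had -1.02 and -0.11 at day 3 and 2.59 and -0.24 at day 10. The 2.59 of Lefty1 came from 1 spot on that array, and the other array was negative. Fst encodes follistatin, which traps activin. Its arrays disagreed in side at both days, with 0.40 and -0.96 at day 3 and 0.29 and -0.86 at day 10. Bambi encodes a receptor decoy without a kinase domain. It had 0.21 and 1.03 at day 3 and 0.01 and 0.39 at day 10, positive on every array and called at neither day.

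The BMP and GDF ligands, grouped by symbol, form the largest group, with 19 genes. They include Bmp1, which encodes a protease and not a ligand of this superfamily. None of the 18 measured at day 3 was called, beside 2.8% of all genes, and 1 of the 18 measured at day 10 was, Gdf1. Over all genes at day 10, 3.54% were called, 2.15% with positive and 1.39% with negative values, beside 1 of 50 pathway genes (2%). The median of the ligands was 0.17 at day 3 and 0.12 at day 10.

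Gdf1 encodes a Nodal-related ligand that is needed for left-right patterning in the mouse, and it shares a bicistronic transcript with the ceramide synthase gene Cers1. It is Entrez gene 14559, on chromosome 8. It had 0.48 and 0.09 at day 3 and -1.38 and -1.05 at day 10. The day 10 values came from different spots: the first array had a value for the second spot alone, and the second array for the first spot alone. No spot of Gdf1 was therefore read on both day 10 arrays. When every reading of at least 2 spots on both arrays had to pass, Gdf1 could not enter, and none of 30 pathway genes passed at day 10, where 1.43% of 8596 genes did and 0.454% on the negative side.

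Both RefSeq windows of Gdf1 are shown because it was the single pathway gene called at day 10, with the same motifs in capitals. The first window, chr8:70315525-70315824, is also the start listed for Cers1, and the second is chr8:70329515-70329814. Both are on the plus strand of GRCm38.p6.
Gdf1 start 1: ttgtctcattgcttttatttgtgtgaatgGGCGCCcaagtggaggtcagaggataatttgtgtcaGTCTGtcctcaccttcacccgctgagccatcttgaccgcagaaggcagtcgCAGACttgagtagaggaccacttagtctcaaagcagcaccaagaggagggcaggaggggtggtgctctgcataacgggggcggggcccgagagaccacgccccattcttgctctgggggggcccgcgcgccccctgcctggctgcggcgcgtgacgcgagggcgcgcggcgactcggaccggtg
Gdf1 start 2: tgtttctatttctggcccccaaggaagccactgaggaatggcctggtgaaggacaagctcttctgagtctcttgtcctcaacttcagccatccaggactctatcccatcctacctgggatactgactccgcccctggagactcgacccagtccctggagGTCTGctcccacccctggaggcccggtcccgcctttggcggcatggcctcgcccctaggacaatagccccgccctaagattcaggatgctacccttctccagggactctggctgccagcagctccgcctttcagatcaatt

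The BMP response core GGCGCC was found in the promoter windows of several pathway genes. It was in 12 of the 45 windows available here for 39 of these genes (26.7%), beside 11.9% of 32851 windows of all genes. The remaining pathway genes, such as Nog, Id1 and Acvrl1, had no window here and were not searched. The windows with GGCGCC belong to Acvr1b, Bmpr1a, Bmpr2, Chrd, Gdf1, Gdf10, Id2, Id4, Smad5, Smad9 and Tgfbr1. Gdf1, Smad5 and Tgfbr1 each have another window without it, and the Gdf1 match is in the window shared with Cers1. The windows of the pathway genes were also richer in G and C, with a median of 63.3% beside 52.7% for all windows, and the part of base composition in this share was not tested. CAGAC was in 44.4% of their windows and 49.6% of all. TGTNNATT, the core of the motif bound by the Smad partner Foxh1, was in 4.44% and 12.2%. All motifs were searched on both strands and counted whether or not they overlapped. A match is only a run of letters in these windows.

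Bmp4, the ligand needed for mesoderm in the mouse embryo, had log2 ratios of 0.09 and 0.20 at day 3 and of -1.30 and -0.32 at day 10. Bmp2, a close relative of Bmp4, had 0.26 and 0.59 at day 3 and -0.60 and -0.24 at day 10. Averaged over spots, both ligands were positive on each day 3 array and negative on each day 10 array, and neither was called. Single spots went both ways: on the first day 3 array Bmp4 read -0.42 and 0.60, and Bmp2 from -0.32 to 1.51. The 4 spots of Bmp2 carry 2 sequences and ranged from -2.24 to 0.56 on the first day 10 array, wider than the distance between the days. Bmp7 had -1.56 and 0.09 at day 3 and -0.44 and 0.62 at day 10, with the arrays of each day on opposite sides.

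Bmp5 was among the steadiest ligands. It had -0.85 and -0.70 at day 3 and -0.58 and -0.48 at day 10. All 8 readings of its spots were negative and none reached the limit. Gdf10, at -1.21 and -0.73, had the lowest day 3 mean of the BMP and GDF ligands, and Gdf6, at 0.67 and 1.13, the highest. At day 10 Gdf10 had -0.28 and -0.94, and Gdf6 had 0.79 and 0.22. Gdf11, a ligand of the activin-like branch, had -0.69 and -0.78 at day 3 and -0.17 and 0.77 at day 10. Gdf3, a Nodal-related ligand of pluripotent cells, was positive on every array, with 0.14 and 0.64 at day 3 and 0.66 and 0.39 at day 10.

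Other genes of this group were set by single readings or by 1 array. Bmp15, a growth factor of the oocyte, had 1.61 and -2.39 at day 3, beyond the limit on opposite sides. Its 2 spots agreed in side within each array, at 0.999 and 2.22 on the first and -3.10 and -1.69 on the second. Gdf5, a ligand known from joint formation, had -1.48 and 3.70 at day 10. The 3.70 averages spot readings of 7.03 and 0.38. Gdf7 had the lowest day 10 mean of the BMP and GDF ligands, with -2.36 and -0.08 on its arrays. Bmp8a had -0.08 and 1.87 at day 10, where its spots on the second array read 3.44 and 0.31. Bmp1, the protease gene placed here by its symbol, had 1.52 and -0.47 at day 3 and 0.32 and 0.85 at day 10. Gdf2 had 0.42 and 0.85 at day 3 and -1.21 and 0.31 at day 10. Both had arrays on opposite sides at 1 day, with 1 array beyond the limit. All array values of Bmp6 and Bmp8b lay between -0.30 and 0.62, and both signs occurred in each. Bmp10 had no value on the first day 3 array and Gdf9 none on the second day 10 array.

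**Figure D2:**
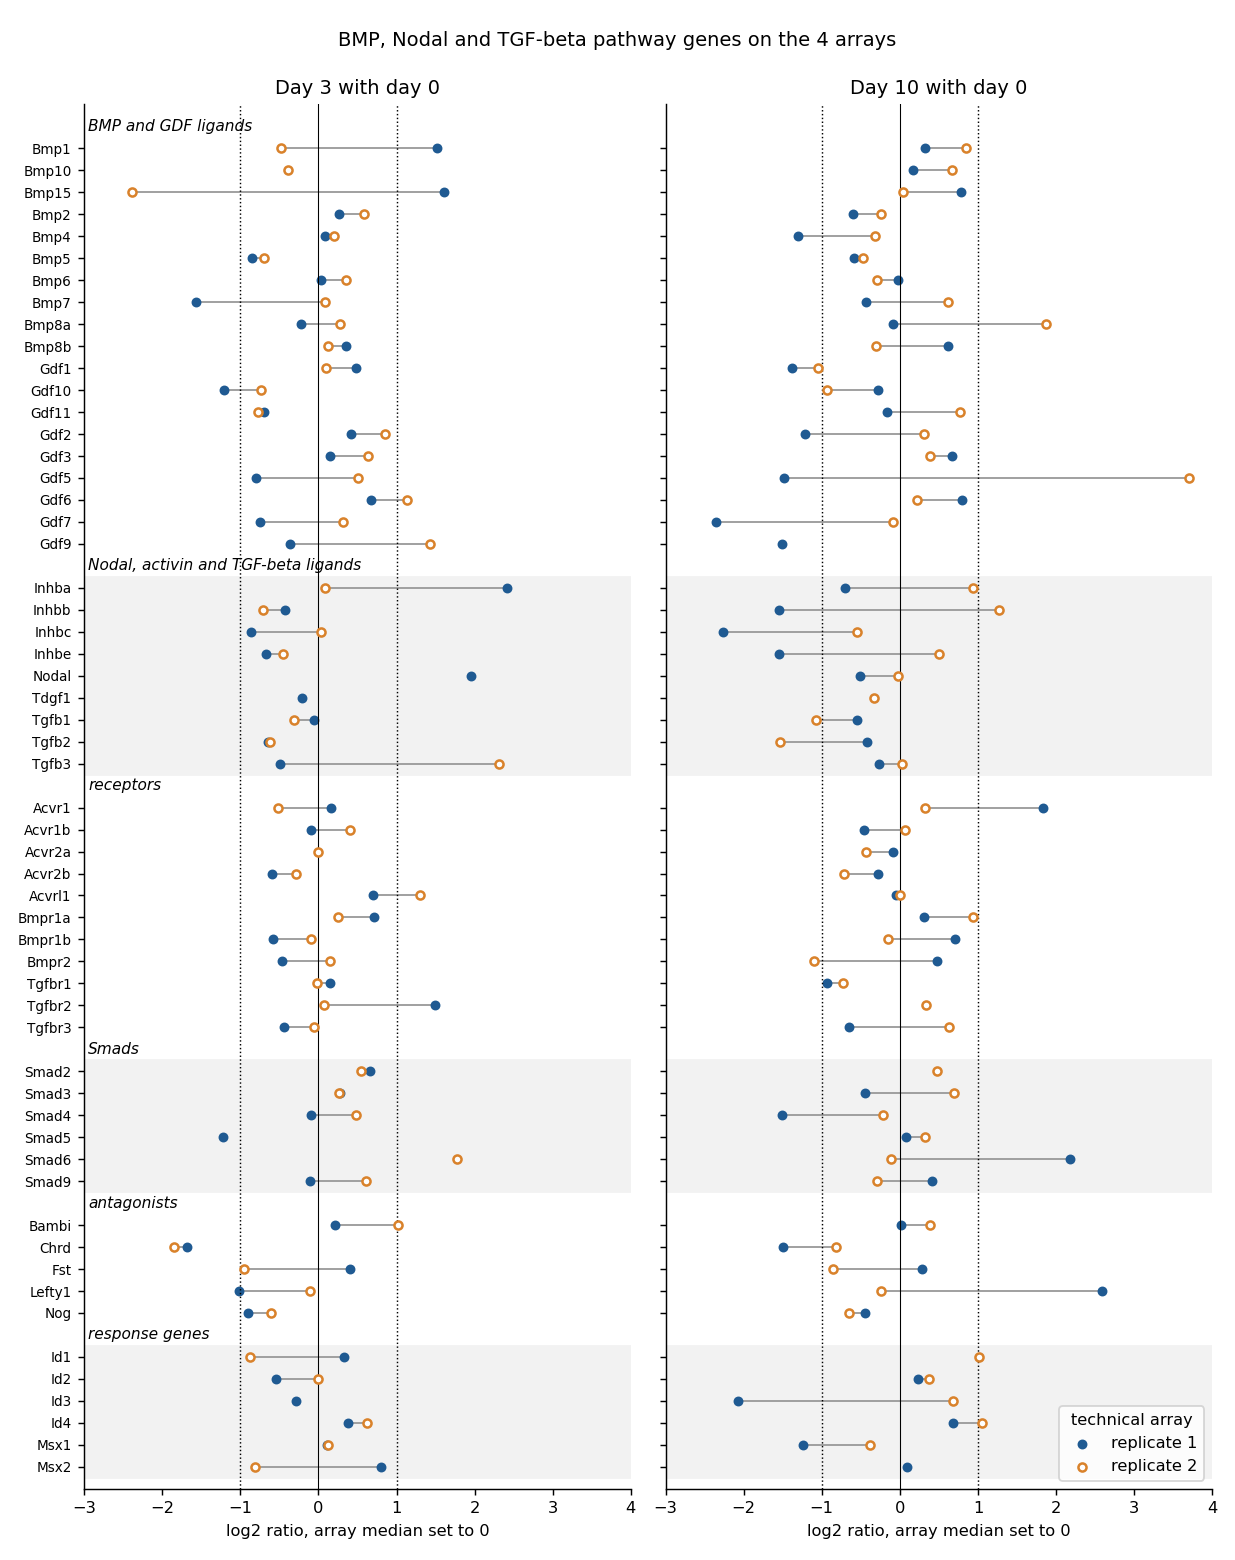
Log2 ratio (horizontal axis, array median set to 0) of each of the 56 genes, by role, on the technical arrays of day 3 (left) and day 10 (right), joined by a line where both arrays have a value; dotted lines mark 2-fold. Chrd at day 3 and Gdf1 at day 10 are the genes with both points outside the same dotted line.

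Nodal signals in the early embryo through activin receptors with the co-receptor Tdgf1 (Cripto). Nodal had a value of 1.96 on the first day 3 array, from spots of 3.52 and 0.39, and none on the second. At day 10 it had -0.51 and -0.03. Tdgf1 had -0.22 on the first day 3 array and -0.33 on the second day 10 array and no value on the others. Neither gene was therefore measured on both arrays of both days.

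Of the activin subunit genes, Inhba had 2.42 and 0.08 at day 3 and -0.71 and 0.93 at day 10. The 2.42 of Inhba averages spots of 3.84 and 0.99. Inhbb had -0.43 and -0.71 at day 3, and -1.55 and 1.27 at day 10, beyond the limit on opposite sides. Inhbc had -0.86 and 0.03 at day 3 and -2.27 and -0.55 at day 10, the lowest day 10 mean of its group at -1.41 ± 1.21. Inhbe, the brightest of the pathway genes at percentile 96.3, had -0.67 and -0.45 at day 3 but -1.54 and 0.50 at day 10. Its arrays thus disagreed in side at day 10.

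The 3 TGF-beta genes were mostly negative. Tgfb1 had -0.05 and -0.32 at day 3 and -0.55 and -1.08 at day 10. Tgfb2 had -0.64 and -0.62 at day 3 and -0.42 and -1.53 at day 10. Tgfb1 and Tgfb2 were negative on every array and not called. Tgfb3 had -0.49 and 2.31 at day 3, where 1 spot of the second array read 4.72 and its partner -0.10, and -0.27 and 0.03 at day 10. None of the 7 genes of this group measured at day 3, and none of the 8 measured at day 10, was called. Of all genes 2.8% and 3.54% were.

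Of the receptors, none of 10 was called at either day, beside 2.8% of all genes at day 3 and 3.54% at day 10. The receptor medians were -0.05 and -0.11. Acvrl1, a type I receptor of endothelial cells also known as Alk1, came nearest at day 3, with 0.70 and 1.30 and a mean of 0.998 ± 0.43. At day 10 it had -0.04 and -0.00057. Its spots read 0.96, 0.43, 1.39 and 1.21 at day 3, all positive, and between -0.33 and 0.24 at day 10. By the brightness recovered from the ratios, Acvrl1 was at percentile 89.1.

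Tgfbr1, the type I receptor of TGF-beta, had 0.15 and -0.02 at day 3 and -0.93 and -0.73 at day 10, the lowest receptor mean of that day. Its 4 spot readings at day 3 lay between -0.06 and 0.19 and its 3 at day 10 between -0.93 and -0.72. Tgfbr2, its type II partner, had 1.499 and 0.08 at day 3 and 1 value at day 10, 0.34. The arrays of Tgfbr2 thus differed by more than its mean. Acvr1, a type I BMP receptor, had 0.16 and -0.52 at day 3 and 1.83 and 0.32 at day 10, with the 1.83 from 1 spot.

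Bmpr1a, a type I BMP receptor needed for gastrulation in the mouse, was positive on every array, with 0.71 and 0.25 at day 3 and 0.31 and 0.93 at day 10. Bmpr2, the type II BMP receptor, had -0.47 and 0.14 at day 3 and 0.47 and -1.10 at day 10. Acvr2b, a type II receptor of activin and Nodal, was negative on every array, at -0.59 and -0.29 at day 3 and -0.28 and -0.71 at day 10. Acvr1b, the type I receptor of activin and Nodal, had -0.09 and 0.41 at day 3 and -0.46 and 0.07 at day 10. Bmpr1b had -0.58 and -0.09 at day 3 and 0.71 and -0.15 at day 10. Tgfbr3 had -0.44 and -0.06 at day 3 and -0.66 and 0.63 at day 10. Both had arrays on opposite sides at day 10. Acvr2a had no value on the first day 3 array and a mean of -0.26 at day 10. These receptors therefore lay inside the limit on at least 1 array of each day.

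Of the Smads, none of the 4 measured at day 3 and none of the 5 measured at day 10 was called. Of all genes 2.8% and 3.54% were. Smad3, a receptor Smad of the Nodal branch, had 0.27 and 0.26 at day 3 but -0.45 and 0.69 at day 10. Smad2 had 0.67 and 0.54 at day 3 and 1 value, 0.48, at day 10. Smad2 was the dimmest of the pathway genes, at percentile 0.19. Smad4, the Smad shared by both branches, had -0.10 and 0.48 at day 3 and -1.504 and -0.21 at day 10. Both of its spots were at or below -1.47 on the first day 10 array, and they read -0.71 and 0.28 on the second. The BMP Smad Smad5 had 1 value at day 3, -1.22, and 0.08 and 0.33 at day 10. Smad9, another BMP Smad, had -0.11 and 0.61 at day 3 and 0.41 and -0.29 at day 10. Smad6, an inhibitory Smad, had 1 value at day 3, 1.77, and 2.18 and -0.11 at day 10, each from 1 spot.

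The Id genes encode inhibitors of basic helix-loop-helix factors and are direct BMP targets. Id4 was positive on every array, with 0.38 and 0.62 at day 3 and 0.67 and 1.05 at day 10, and was the highest response gene at both days. Id2 had -0.54 and -0.01 at day 3 and 0.24 and 0.38 at day 10. Id1 had 0.33 and -0.87 at day 3 and 1 value at day 10, 1.02. Id3 had 1 value at day 3, -0.28, and -2.07 and 0.68 at day 10. The Id genes thus did not lie on a common side. Of the Msx homeobox genes, which are BMP targets in many embryonic tissues, Msx1 had 0.11 and 0.12 at day 3 and -1.24 and -0.38 at day 10. Msx2 had 0.80 and -0.82 at day 3 and 1 value, 0.10, at day 10. No response gene was called at either day, beside 2.8% of all genes at day 3 and 3.54% at day 10.

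**Figure D3:**
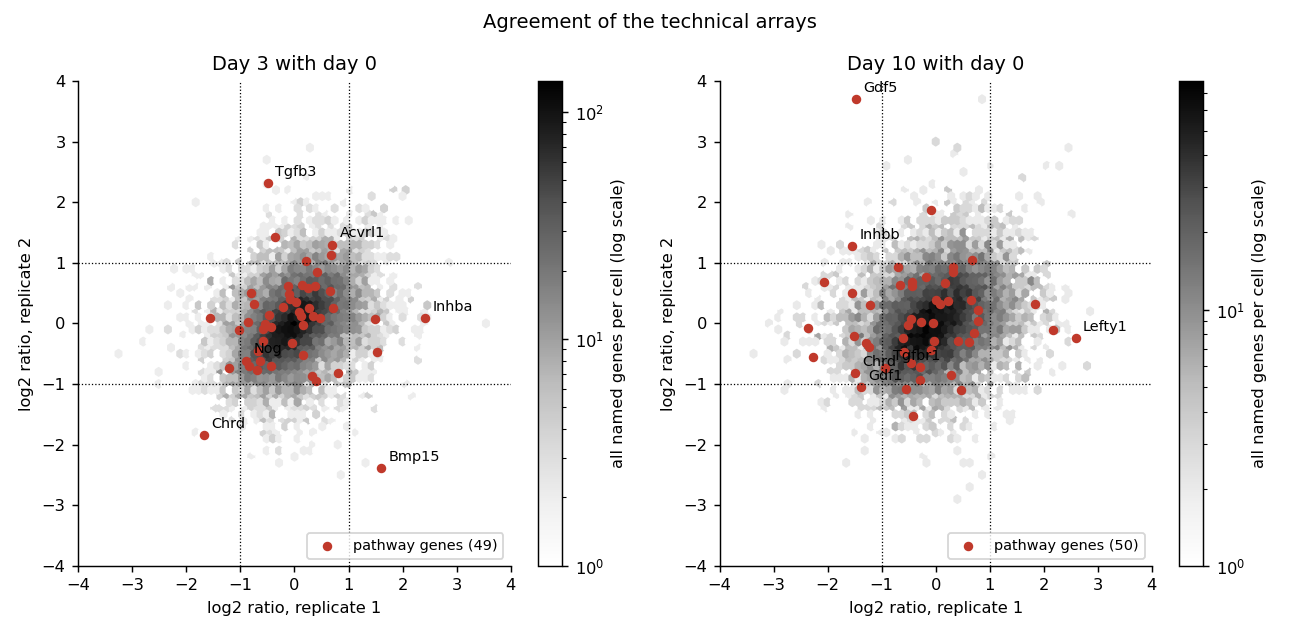
Log2 ratio on replicate 1 (horizontal axis) against replicate 2 (vertical axis) for day 3 and day 10, with pathway genes as red points over the number of all named genes in each cell (grey, log scale); dotted lines mark 2-fold. Chrd lies apart in the lower left at day 3, and Bmp15 at day 3 and Gdf5 and Inhbb at day 10 lie in corners where the arrays disagree.

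The spread between technical arrays was as wide as most of these values. The median difference between the arrays of a day was 0.49 at day 3 and 0.72 at day 10 for the pathway genes, beside 0.39 and 0.52 for all genes. Bmp15 at day 3 and Gdf5 and Inhbb at day 10 were beyond the limit on opposite sides, 2.04% and 4% of the pathway genes measured, beside 0.744% and 1.48% of all genes. The arrays had the same side for 31 of 49 pathway genes at day 3 (63.3%) and 30 of 50 at day 10 (60%), beside 64.7% and 60.8% of all genes. Across the pathway genes, which share the arrays, Pearson's r between the arrays was 0.07 at day 3 and -0.04 at day 10 (Spearman's rho 0.21 and 0.07), beside 0.27 and 0.22 over all genes (rho 0.33 and 0.26).

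Spots of 1 sequence on 1 array also differed. The median difference between them was 0.53 to 0.72 over the 4 arrays for the pathway genes, beside 0.33 to 0.54 for all genes with such spots. The pathway genes were somewhat dim, with a median brightness percentile of 38.2, 9 of the 56 in the brightest 25% and 17 in the dimmest 25%. The part of brightness in these differences was not tested.

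A limit of 1.5-fold took in further genes, and its counts and shares include those beyond 2-fold, Chrd at day 3 and Gdf1 at day 10. At day 3, 6 of 49 pathway genes were beyond 1.5-fold on the negative side on both arrays (12.2%), beside 5.33% of all genes. These were Chrd, Nog, Bmp5, Gdf10, Gdf11 and Tgfb2. On the positive side were 2, Acvrl1 and Gdf6 (4.08%), beside 6.33%. At day 10 Chrd, Gdf1 and Tgfbr1 were beyond 1.5-fold on the negative side (6%), beside 6.53%, and Id4 on the positive side (2%), beside 7.42%. In the negative set of day 3, Chrd and Nog encode secreted BMP antagonists, and Bmp5, Gdf10, Gdf11 and Tgfb2 encode ligands. Of 47 regulators measured at day 3, a list described below, Twsg1 was beyond 1.5-fold on the positive side and Tob1 on the negative side (2.13% each).

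**Figure D4:**
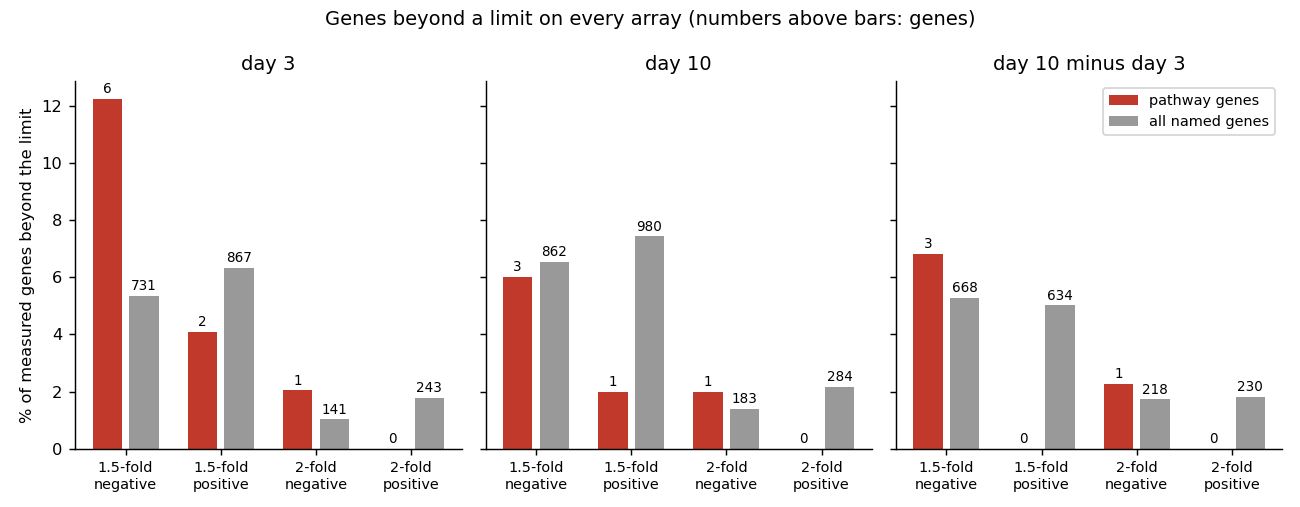
Share of measured genes (vertical axis, percent) beyond 1.5-fold or 2-fold on every array, by side, for the pathway genes (red) and all named genes (grey), with the number of genes above each bar. The share of pathway genes is above that of all genes on the negative side at day 3 (6 genes at 1.5-fold and 1 at 2-fold), and at day 10 the 2-fold negative bar rests on 1 gene.

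Day 10 was set against day 3 by taking differences of the ratios. This assumes that the same day 0 RNA was used on all arrays and that their ratios have the same numerator. Each day 10 array was set against each day 3 array, and a gene was called when the 4 resulting differences were all at or beyond 1 with the same sign. The median difference, day 10 minus day 3, was -0.07 over 44 pathway genes and -0.01 over 12654 genes. Gdf1 was the only pathway gene called (2.27%). Of all genes 3.54% were called, 1.82% positive and 1.72% negative.

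Gdf1 had -1.38 and -1.05 at day 10 against 0.48 and 0.09 at day 3, a difference of -1.498 ± 0.35 (SD combining the spread of both pairs of arrays). The values of the days did not overlap, and all 4 differences lay between -1.85 and -1.14. As above, the day 10 values rest on 1 spot each. Acvrl1 had -0.04 and -0.00057 at day 10 against 0.70 and 1.30 at day 3, a difference of -1.02 ± 0.43. Tgfbr1 had -0.93 and -0.73 at day 10 against 0.15 and -0.02 at day 3, a difference of -0.90 ± 0.19. For these 3 all 4 differences were negative and beyond 1.5-fold (6.82%), beside 5.28% of all genes, and no pathway gene was on the positive side, where 5.01% of all genes were.

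Chrd had -1.49 and -0.82 at day 10 against -1.68 and -1.85 at day 3, a difference of 0.61 ± 0.49 whose 4 values ran from 0.19 to 1.02. Its days did not overlap but were not beyond the limit. The farthest positive mean difference was that of Lefty1, 1.74 ± 2.10, with single differences from -0.14 to 3.61. Bmp1, Bmp15, Fst, Gdf5, Inhbb and Inhbe had differences beyond 1 with both signs, 6 of 44 pathway genes (13.6%), beside 6.11% of all genes. For these 6 the choice of array set the direction.

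**Figure D5:**
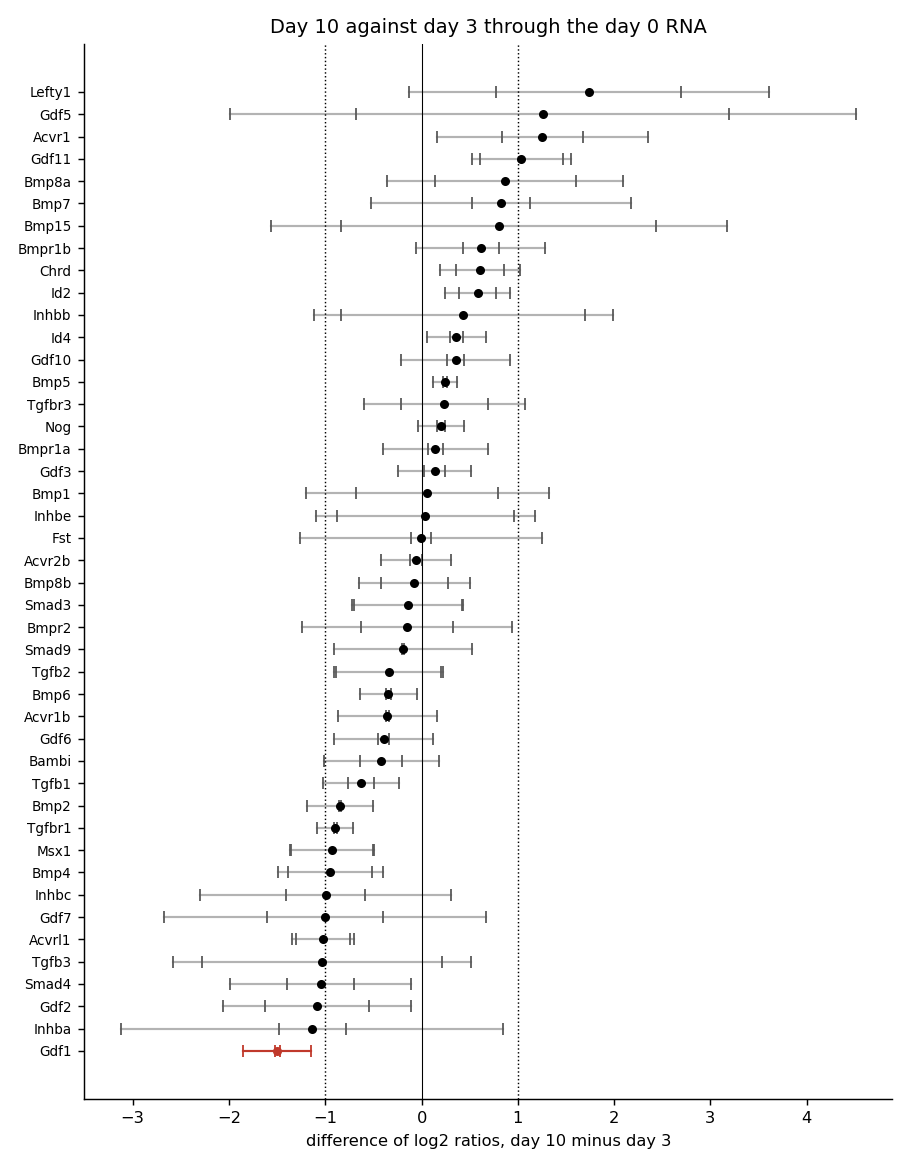
Differences of log2 ratios, day 10 minus day 3 (horizontal axis), for the 44 pathway genes with a value on all 4 arrays; ticks are the 4 differences between arrays, points their mean, and dotted lines mark 2-fold. Gdf1 (red) is the gene with all 4 ticks beyond -1, while several genes span both sides.

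Other genes of the pathway were looked at in 2 lists. Of 49 regulators on named spots, such as processing enzymes, ligand traps, Smad partners and ubiquitin ligases, none of the 47 measured was called at day 3, beside 2.8% of all genes, and 2 of 45 were at day 10 (4.44%), beside 3.54%. Zfyve9, which encodes the Smad anchor SARA, had 1.01 and 1.02 at day 10, just beyond the limit. Ltbp2, which encodes a matrix protein related to those that bind latent TGF-beta, had -1.44 and -1.24 at day 10 against 0.36 and 0.55 at day 3. It was the 1 regulator of 43 called between the days (2.33%), beside 3.54% of all genes, with a difference of -1.80 ± 0.19. The regulator medians were 0.12 at day 3, 0.06 at day 10 and 0.02 between the days.

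Of 32 further response genes, 2 of 31 were called at day 3 (6.45%), beside 2.8% of all genes. None of 29 was called at day 10 and none of 28 between the days, beside 3.54% of all genes in each. Mesp1, a transcription factor of early mesoderm, had 2.04 and 1.89 at day 3 and 1 value, 1.55, at day 10. Hey1, a transcription factor of the Notch and BMP responses, had 1.12 and 1.43 at day 3 and 0.73 and 1.01 at day 10. Mesp1 and Hey1 were dim, at percentiles 11.4 and 21.7. The medians of this list were -0.15 at day 3, 0.18 at day 10 and 0.10 between the days.

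The labels were set against marker genes. Of 10 markers of undifferentiated cells, all 10 had values on both day 3 arrays, 9 were negative on both, and their median was -0.44. Dppa5a, a gene of pluripotent cells, was the 1 called (10%), beside 2.8% of all genes. It had -2.74 and -2.69 at day 3, but 0.41 and -2.85 at day 10. At day 10 the median over 9 of them was -0.26, and 5 had the same side on both arrays, 3 negative and 2 positive. Pou5f1 and Klf4, transcription factor genes of pluripotent cells, were negative beyond 1.5-fold on both day 10 arrays, with -0.69 and -2.09 for Pou5f1 and -1.17 and -0.85 for Klf4. Fgf4, a growth factor gene of pluripotent cells, was the 1 of 9 called between the days (11.1%), beside 3.54% of all genes. It was on the positive side, with 1.51 and 0.99 at day 10 against -0.48 and -0.22 at day 3. Of 7 mesendoderm markers, 1 was called at day 3 (14.3%), Mesp1, beside 2.8% of all genes. On both day 3 arrays 4 of the 7 were positive and 2 negative, Eomes and Lhx1, while Evx1 had both signs. Their median was 0.29 at day 3 and -0.07 over 6 at day 10. Levels within a sample cannot be read from ratios, so the absence of a marker could not be checked.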

How the data were processed

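The values are log2 ratios of the channels of each array, as deposited by the authors, 1 per spot and array. The log base was settled from the values: 7.68% of 5000 values were ratios of whole numbers in base 2 (denominator up to 100, within 5e-05 of a whole number), beside 0.7% in base e and 0.58% in base 10. The sources used here do not give the scanner, background treatment, dyes, dye correction or what left a spot without a value. Between 10.3% and 18.8% of the 46128 spots of an array had no value, and between 13.1% and 24.6% of the pathway gene spots. Over all genes, r between a day 3 and a day 10 array was 0.12 to 0.16. With the dyes unknown, values this weak cannot settle whether all arrays had the same numerator.

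Spots were named through the platform annotation (32544 with 1 symbol, 588 with several, 12996 unnamed here), and lookup by Entrez ID in RefSeq GRCm38.p6 changed no symbol of a pathway gene. The 480 spots of 5 accessions with 96 spots each and no Entrez ID match in the RefSeq mouse table were left out as controls. Each array was centred on its median without controls and spots were averaged per gene. Calls were checked on simulated data. Recovery of brightness was checked only on ratios simulated from whole numbers up to 10000. To recover brightness, the smallest pair of whole numbers with the deposited ratio was found. Its geometric mean was taken on the log2 scale. A pair was found for 59.3% to 62.0% of the values of an array, and only for these is brightness a lower bound. Values that no pair up to 10000 gives count as bright, their signal is not known, and the simulation did not cover them. Brightness percentiles and the brighter part of the genes therefore rest in part on values without a pair. All pathway genes are accounted for, with array values for those called, those of a preset list, the role extremes and those with arrays beyond 2-fold on opposite sides, and ranges or single values for the rest. The array values of Bmp1, Bmp5, Bmp8a, Bmpr1b, Gdf2, Gdf11, Inhbe, Smad9, Tgfb3 and Tgfbr3 and of the markers Cdx2, Hand1, Klf4 and Pou5f1 were added after their values were seen. The genes and lists were chosen with earlier results of these data known. Promoter windows lie around RefSeq starts and were available here for 39 of the pathway genes. Python 3.11.15, numpy 2.4.6, pandas 2.3.3 and matplotlib 3.10.9 were used.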

Additional observations from a re-analysis of the deposited data

Results flagged for a closer look

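In 7 of the 44 pathway genes with a value on all 4 arrays, both arrays of day 10 lay on 1 side and both of day 3 on the other. These differences between the days were not tested, several values are close to 0, and both days were set against day 0. By the 2-fold limit, a different criterion, 1 of the 44 was called between the days (2.27%), beside 3.54% of all genes. The share of all genes with the days on opposite sides is not given here, so whether 7 of 44 is many cannot be read. The 7 are given as values only. Gdf1 had -1.38 and -1.05 at day 10 against 0.48 and 0.09 at day 3, a difference of -1.498. Acvrl1 differed by -1.02, with day 10 values of -0.04 and -0.00057 that are close to 0. Bmp4 had -1.30 and -0.32 at day 10 against 0.09 and 0.20 at day 3, a difference of -0.95. Msx1 had -1.24 and -0.38 at day 10 against 0.11 and 0.12 at day 3, a difference of -0.93. Bmp2 differed by -0.85 and Bmp6 by -0.35. Id2 was the 1 gene in the other direction, at 0.24 and 0.38 at day 10 against -0.54 and -0.01 at day 3, a difference of 0.58.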

How the results depend on the processing

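No paired analysis was possible because the arrays of a day are technical replicates whose labels carry no number shared between the days. Chrd at day 3 and Gdf1 at day 10 and between the days kept their calls without centring and with a common spread. The median over their spots and the filters on genes could not change their values, and Gdf1 had too few spot readings for the stricter criterion on every spot. At 1.5-fold, 8, 4 and 3 pathway genes were called at day 3, at day 10 and between the days, and 10, 7 and 3 of the regulators and further response genes, beside 11.7%, 14% and 10.3% of all genes. With the limit on the mean alone these were 2, 8 and 11, and 7, 5 and 6, beside 7.97%, 10.6% and 16.2%. Leaving out 1 array in turn, which lets a single array decide, gave 8 to 10, 9 to 16 and 4 to 10 pathway genes, and 9 to 13, 14 to 15 and 5 to 9 of the others, beside 12.8% to 14.4%, 16.2% to 20.4% and 10% to 15.4% of all genes. Without day 10 replicate 1 Chrd was at -0.82, and without replicate 2 at -1.49. The day 3 median of the pathway genes lay between -0.090 and 0.086 with an array left out. In the brighter 50% of genes their median was 0.05 at day 3, beside -0.06 for all genes there, and -0.51 at day 10, beside -0.13. Of the regulators and further response genes, 1 was called at day 10 without centring, with a common spread or in the brighter 50%, where 0 were called at day 3. With values on all 4 arrays 1 was called at day 3. When every spot reading had to pass, a criterion chosen after seeing the data, 0 pathway genes were called at day 10 and 0 of the others at either day. Of single pathway genes, 3 values moved by at least 1 SD of their arrays without centring and 140 did not, and with a common spread 5 did and 138 did not. Leaving out 1 of 2 arrays moves a mean by less than their SD by construction. The causes were not tested. The number of arrays, 1 RNA pair per day, missing spots and unknown signal over background limit every value.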

Other observations

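Markers of other cell types that embryoid body cultures can hold were read in the same way. Of 11 extraembryonic endoderm markers, none was called at day 3 (median -0.17) and none of 10 at day 10 (median 0.35). Of all genes 2.8% and 3.54% were called at these days. Of 7 fibroblast markers none was called at either day, with medians of 0.08 at day 3 and -0.19 at day 10, and CGR8 cells can be grown without a feeder layer. Of the trophoblast markers, 1 of 5 was called at day 3, beside 2.8% of all genes, and 1 of 6 at day 10, beside 3.54%. These were Tfap2c, a transcription factor gene, with 1.45 on both day 3 arrays, and Psg17, a pregnancy-specific glycoprotein gene, with 1.25 and 1.13 at day 10. On both day 3 arrays 3 of the 5 were positive and 0 negative, and on both day 10 arrays 2 of the 6 were positive and 1 negative. Cdx2 had 0.43 and 0.60 at day 3 but -0.12 and -0.03 at day 10. Hand1, at brightness percentile 0.89, had 0.76 and -1.97 at day 3. The medians of that list were 0.40 over 5 genes at day 3 and 0.22 over 6 at day 10. Their part in the values of the pathway genes was not tested.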
